A study of Homo sapiens with 18 samples.

Results

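The m6A readers described here are the 8 genes YTHDF1, YTHDF2, YTHDF3, YTHDC1, YTHDC2, IGF2BP1, IGF2BP2 and IGF2BP3, taken by gene symbol from lists of RNA sites that hold 4470 genes in all. They held 54 of 15024 distinct sites. The sites lie in the transcripts of the reader genes and were listed for hnRNP C on these RNAs. They do not say where the reader proteins bind.

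Readers are proteins that recognise N6-methyladenosine (m6A), a methyl mark that the METTL3 and METTL14 enzyme writes within the short RRACH motif of RNA. The YTH proteins hold the methyl group in a pocket of their YTH domain. The YTHDF proteins are cytoplasmic and are known for mRNA decay and translation, YTHDC1 is nuclear and known for splicing and export, and YTHDC2 is a helicase needed in germ cells. The IGF2BP proteins bind target mRNAs through KH domains and are known for stabilising them. hnRNP C is a nuclear protein that binds runs of uridines in nascent RNA, and in an m6A switch the mark on a nearby RRACH motif loosens the local RNA fold and lets hnRNP C reach its U-tract.

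The study used HEK293T cells, a transformed human embryonic kidney line, in 18 samples that form 9 groups of 2. In PARCLIP-MeRIP of wild type cells, RNA crosslinked to hnRNP C was enriched with an m6A antibody (IP) and set against input. PAR-CLIP of hnRNP C covered METTL3 knockdown, METTL14 knockdown and control cells, and RNA-seq covered HNRNPC, METTL3 and METTL14 knockdown and control cells. Knockdown leaves part of the protein in place, and its extent was not analysed here.

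The values used are the 2 deposited lists, the switch list from PARCLIP-MeRIP with 13378 distinct U-tracts and the HCS list, named so by the submitters, with 2748. Each entry pairs a U-tract of at least 5 uridines with an RRACH motif at a listed distance of at most 50 nt. The lists hold no value per sample, so read depth is unknown, no comparison between samples was possible, and they give no expression of the readers. The RNA-seq of the study was not analysed here. None of 13 genes restricted to blood, liver, muscle or neurons was in either list (0 with a switch site and 0 with an HCS site). The lists hold only 4470 genes, and the share of all annotated genes that this makes was not computed. The absence of so few genes therefore says little about the cells or the lists. All positions are hg19. The sequence of that build was not used here, so tracts are given by position and length.

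Of the 8 readers, 7 had a switch site under their symbol and 5 had an HCS site. Together they held 48 switch sites and 9 HCS sites, and 3 of these were the same U-tract in both lists. YTHDF1 and YTHDF2 held 10 switch sites each, YTHDC2 held 8, IGF2BP1 and IGF2BP3 held 6 each, YTHDC1 held 5 and IGF2BP2 held 3. YTHDF3 held none under its symbol. By HCS sites the order differed, with 3 in YTHDF2, 2 each in YTHDF3 and IGF2BP1, 1 each in YTHDC2 and IGF2BP2, and none in YTHDF1, YTHDC1 or IGF2BP3. Of the 7 readers in the switch list, 4 were also in the HCS list (57.1%, exact binomial 95% interval 18.4% to 90.1%), against 1534 of the 4188 genes in the switch list (36.6%). Those genes were counted with missing symbols looked up, and on that basis YTHDF3 has a switch site too and the readers come to 5 of 8 (62.5%, interval 24.5% to 91.5%). Either interval contains the share over all genes. The shares were not matched for number of switch sites, which had a median of 6 in the readers and 2 over all genes. Where a gene held 10 or more, an HCS site was lacking in 38 of 239 cases (15.9%). Whether the readers differ from genes that hold as many switch sites was not tested.

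**Figure D1:**
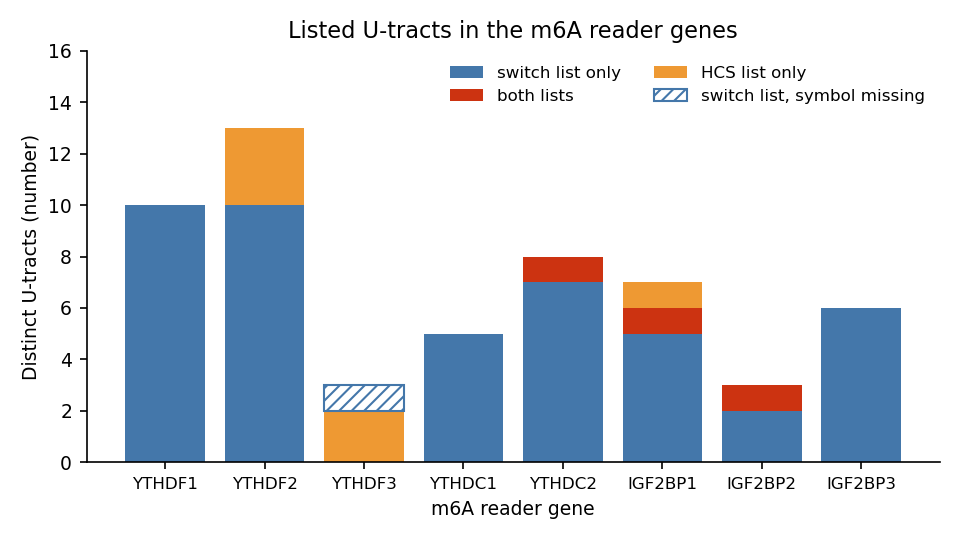
Distinct U-tracts (number, vertical axis) in each of the 8 reader genes (horizontal axis), stacked by the list that holds them. YTHDF2 is the tallest bar with 13, all in one list or the other, and the hatched block is the YTHDF3 site whose entries carry no gene symbol.

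YTHDF1, a reader known for promoting translation, lies on the minus strand of chromosome 20 and held 10 switch sites and 0 HCS sites. They ran from 1.21 to 20.3 kb of the listed transcript, introns included. Its U-tract at 61827478 to 61827492 has 15 uridines, the longest of any reader, and lies 1 nt from its motif. The remaining tracts of YTHDF1 have 5 or 6 uridines. A tract of 5 uridines at 61827509 to 61827513 flanks the same motif on the other side with a gap of 10 nt. The other 2 groups of tracts are 3 at 61841085 to 61841108, which share a motif at gaps of 25, 36 and 44 nt, and a pair at 61842654 to 61842666 with gaps of 11 and 3 nt. The 10 sites of this gene therefore rest on 6 motifs.

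YTHDF2, the reader best known for recruiting mRNA decay, lies on the plus strand of chromosome 1. It held 10 switch sites and 3 HCS sites, and the lists share 0 of them. All 3 HCS sites are intronic. The first is a tract of 5 uridines at 29064685 to 29064689, 1.55 kb into the transcript and 17 nt from its motif, with the nearest switch site 1285 nt away. The next, at 29067135 to 29067139, also has 5 uridines, and its motif lies 49 nt downstream, the widest gap of any reader HCS site. The third, at 29076804 to 29076810, has 7 uridines and a gap of 1 nt, and lies 66 nt from the switch site at 29076877 to 29076881. The first HCS site thus precedes all switch sites of YTHDF2 along the transcript, and the other two lie among them.

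The switch sites of YTHDF2 spread from 2.84 to 32.8 kb and rest on 7 motifs. Their longest tracts are a pair of 7 uridines each, at 29065975 to 29065981 and 29065984 to 29065990, upstream of which a single motif lies at gaps of 15 and 24 nt. The smallest gap is 0 nt, at the tract 29095938 to 29095942, which directly follows its motif. In this gene the motif lies upstream of 7 of the 10 tracts. The switch list gives YTHDF2 as 3 transcripts with the same 10 sites, and their listed starts differ by 319 and 3 nt, so its 30 entries were counted as 10 sites. YTHDF2 has HCS sites and shares none of them, as do 674 of the 1534 genes with sites in both lists (43.9%). Among the 231 genes with at least 3 HCS sites and a switch site, 34 (14.7%) share none.

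YTHDF3, the third cytoplasmic reader of the family, lies on the plus strand of chromosome 8 and has 2 HCS sites, both intronic. The one at 64090774 to 64090778 lies 9.66 kb into the transcript with its motif 26 nt upstream, and the one at 64104802 to 64104806 lies at 23.7 kb with its motif 13 nt downstream. Both tracts have 5 uridines. The switch list holds no entry with this symbol, but 3 of its entries without a symbol name YTHDF3 transcripts. They describe a single tract of 5 uridines at 64089687 to 64089691, with a motif 1 nt downstream, 1082 nt from the nearer HCS site. With it, the readers have 49 switch sites and all 8 genes are in the switch list. With missing symbols looked up, genes with an HCS site and no switch site number 282 of 1816 (15.5%), and YTHDF3 is then not one of them.

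YTHDC1, the nuclear reader, lies on the minus strand of chromosome 4 and held 5 switch sites and 0 HCS sites. Its sites fall between 25.7 and 34.4 kb of the transcript, a span of 8.68 kb, and none was listed before that. The longest tract, 7 uridines at 69181446 to 69181452, lies 10 nt from its motif. The smallest gap is 3 nt, at 69190126 to 69190131. The tracts at 69188014 to 69188019 and 69188095 to 69188099 share a motif that lies between them, with gaps of 20 and 50 nt.

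YTHDC2, the helicase of the family, lies on the plus strand of chromosome 5 and held 8 switch sites and 1 HCS site. The HCS site is intronic and in both lists, a tract of 6 uridines at 112895614 to 112895619, 46.2 kb into the transcript, with its motif 17 nt upstream. The switch sites span 53.0 kb, from 26.4 to 79.3 kb. Their gaps run from 3 to 19 nt, the narrowest range among the readers with more than 3 switch sites. The longest tract has 9 uridines, at 112915255 to 112915263, with a gap of 12 nt, and the smallest gap, of 3 nt, belongs to the tract at 112926373 to 112926377. YTHDC2 also has a pair of tracts of 5 uridines at 112905960 to 112905972 that share a motif at gaps of 13 and 5 nt.

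IGF2BP1, an oncofetal protein that protects mRNAs such as MYC from decay, lies on the plus strand of chromosome 17 with 6 switch sites and 2 HCS sites. The HCS site at 47130422 to 47130426 is the only exonic one among the 9 of the readers. It has 5 uridines, a motif 2 nt downstream, and is in both lists. Which part of the exon it lies in, coding or untranslated, was not analysed here. The other HCS site, 7 uridines at 47110352 to 47110358, is intronic, has its motif 29 nt upstream, and lies 19858 nt from the nearest switch site of the gene. The switch sites of IGF2BP1 form separate groups, with 4 between 3.41 and 5.34 kb of the transcript and 2 at 55.4 and 55.6 kb. Its longest switch tracts have 6 uridines, at 47078258 to 47078263 and 47079078 to 47079083.

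IGF2BP2, known for its part in metabolism and diabetes risk, lies on the minus strand of chromosome 3 and held 3 switch sites, 1 of them also an HCS site. That tract, at 185515393 to 185515397, is intronic, has 5 uridines and lies 8 nt from a downstream motif, the smallest gap of the gene. The other tracts, at 185532166 to 185532170 and 185532217 to 185532221, sit on either side of a motif with gaps of 30 and 11 nt. All 3 tracts have 5 uridines. IGF2BP3, the third paralogue, lies on the minus strand of chromosome 7 and held 6 switch sites and 0 HCS sites, from 0.107 to 96.0 kb, the widest span of the readers at 95.9 kb. Its gaps were also wide, with a median of 34.5 nt, against 26.5 nt in IGF2BP1 and 11 nt in IGF2BP2. The motif lay downstream of 5 of its 6 tracts, as in IGF2BP1. On that side the lists allow gaps wider by the 5 nt of the motif. Whether side bears on the median gap of IGF2BP3 was not tested. The site with the smallest gap, 7 nt, is at 23413984 to 23413988, and the longest tracts have 6 uridines, at 23433776 to 23433781 and 23496920 to 23496925. The tract at 23509884 to 23509888 starts 107 nt after the listed transcript start, nearer than that of any other reader.

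**Figure D2:**
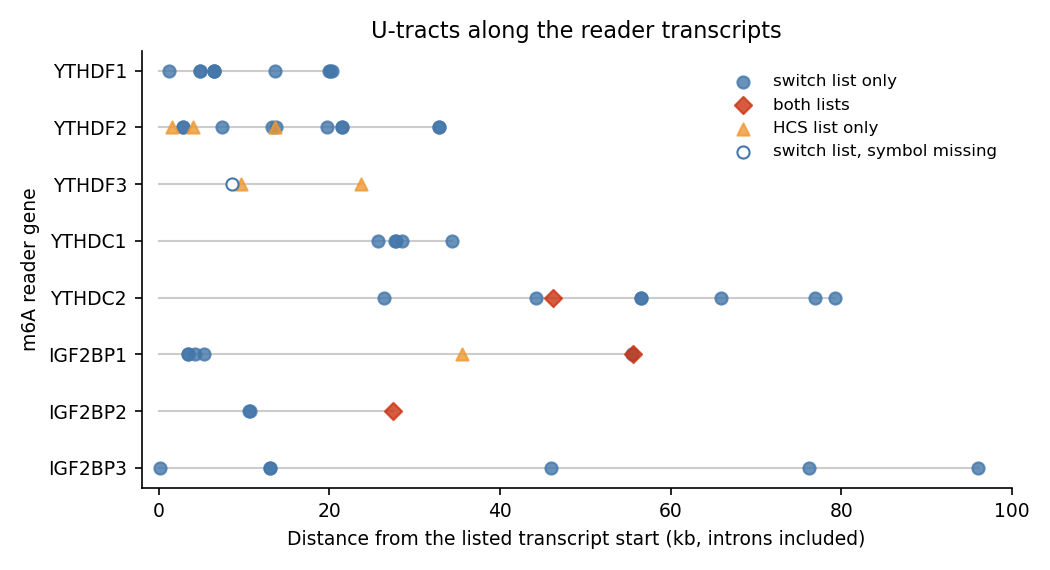
Position of each reader U-tract along its transcript (kb from the listed start, introns included, horizontal axis) by gene (vertical axis); grey lines run to the last listed site, not to the end of the gene. IGF2BP1 has its sites near 3 to 5 kb and near 55 kb with a site of the HCS list only at 35.6 kb between them, and YTHDC1 has none before 25.7 kb.

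Over all 9 HCS sites of the readers, 3 were in the switch list (33.3%, interval 7.49% to 70.1%), against 40.1% of all HCS sites. The 3 lie in YTHDC2, IGF2BP1 and IGF2BP2, while the 5 HCS sites of YTHDF2 and YTHDF3 were all outside it. Intronic sites made up 8 of the 9 (88.9%, interval 51.8% to 99.7%), against 83.0% of all HCS sites. Both intervals contain the share over all sites, and with 9 sites in 5 genes they are wide. In the other direction, 6.25% of the reader switch sites were in the HCS list (3 of 48, interval 1.31% to 17.2%), against 8.24% of all switch sites. The intervals treat sites as independent, although sites of one gene share its expression and length, and are therefore too narrow.

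The geometry of the reader switch sites was then described beside that of all switch sites. Their median gap was 15 nt (exact interval 10 to 24, n = 48), against 17 nt for all 13378. The sides differed in direction, with a median gap of 11 nt where the motif lay downstream of a reader tract (n = 28), against 18 nt for all such sites, and of 19.5 nt where it lay upstream (n = 20), against 16 nt. These differences by side were not tested. Of the 20 upstream sites, 7 lie in YTHDF2 and 5 in YTHDF1, and most of these share a motif with another tract. A gap of at most 10 nt was found in 17 of 48 (35.4%, interval 22.2% to 50.5%), against 34.4% of all. The motif lay downstream of the tract in 28 of 48 (58.3%, interval 43.2% to 72.4%), against 59.7%. By gene the downstream count was 5 of 6 in IGF2BP1 and in IGF2BP3 and 4 of 5 in YTHDC1, while it was 3 of 10 in YTHDF2. Median gaps by gene ran from 11 nt in IGF2BP2 and 11.5 nt in YTHDF2 to 27.5 nt in YTHDF1 and 34.5 nt in IGF2BP3. The limit of 50 nt applies to the listed distance, which includes the 5 nt of an upstream motif. Downstream gaps can therefore be listed wider than upstream gaps, so genes that differ in side are not measured over equal windows. The 9 HCS sites had a median gap of 17 nt (interval 2 to 29), against 11 nt for all HCS sites.

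Tracts of exactly 5 uridines made up 34 of the 48 reader switch sites (70.8%, interval 55.9% to 83.0%), against 63.7% of all. Tracts of at least 8 uridines were found in YTHDF1 and YTHDC2 only, with 1 each (4.17% of 48, interval 0.509% to 14.3%), against 9.88% of all. The downstream gaps of 5, 13, 40 and 48 nt, which many sites of the whole list share, occurred at 3 reader sites (6.25%, interval 1.31% to 17.2%, against 9.6% of all). These are the YTHDC2 pair with gaps of 13 and 5 nt and the IGF2BP3 tract at 23463962 to 23463966 with 48 nt. For each share of tract length or gap above, the interval of the readers contains the share of all switch sites.

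**Figure D3:**
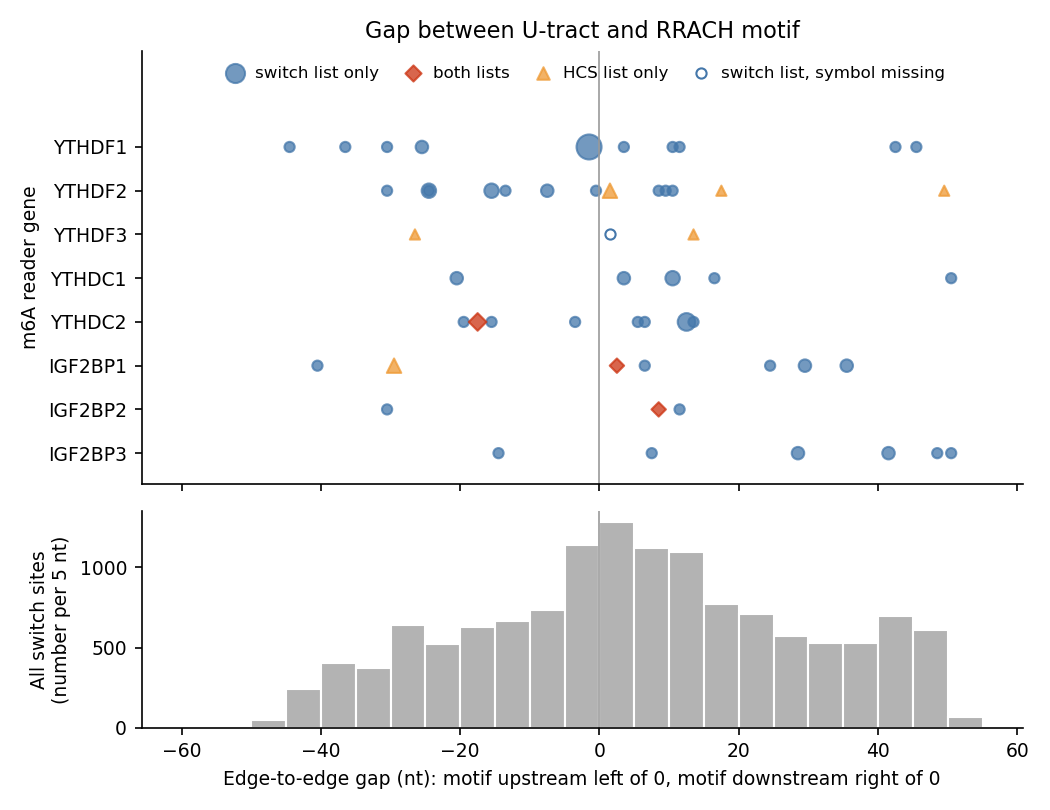
Edge-to-edge gap (nt, horizontal axis; motif upstream of the tract on the left, downstream on the right) of each reader site by gene (top), with marker size growing with tract length, above all switch sites in bins of 5 nt (bottom). The large YTHDF1 marker next to 0 is its tract of 15 uridines, and 4 of the 6 IGF2BP3 sites have gaps of at least 28 nt.

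Spacing was described next. Another switch site lay within 100 nt on the same strand for 23 of the 48 (47.9%, interval 33.3% to 62.8%), against 30.9% of all switch sites, and within 10 nt for 15 (31.2%, interval 18.7% to 46.3%), against 18.2%. A motif served more than 1 tract in 10 of 37 cases (27.0%, interval 13.8% to 44.1%), against 15.3% of all motifs. Neighbours come in pairs and are not independent, so these intervals are too narrow to set against the values of all sites, and no test was run. The shares were also not matched for number of switch sites per gene, with a median of 6 in the readers and 2 over all genes. By gene, 7 of the 23 sites lay in YTHDF1 and 6 in YTHDF2, with 2 in each other reader listed under its symbol. Most of the shared motifs also lay in YTHDF1 and YTHDF2.

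The 15 closely spaced tracts form 7 U-rich runs in YTHDF1, YTHDF2, YTHDC2 and IGF2BP3, each with a single motif. YTHDC2 and IGF2BP3 hold a run of 2 tracts each, and all other runs lie in YTHDF1 and YTHDF2. The longest, in YTHDF1 at 61841085 to 61841108, spans 24 nt of which 16 are listed uridines. In YTHDF2 the tracts at 29084583 to 29084593 are split by a single nt, so that 10 of 11 nt are listed uridines, and those at 29065975 to 29065990 make up 14 of 16 nt. The YTHDF2 run at 29095938 to 29095955 is looser, with 10 of 18 nt. Each run is counted as several sites in the lists, and whether hnRNP C contacts each tract of a run was not tested. With sites within 100 nt merged, the 48 become 36. Of the 10 shared motifs, 3 had tracts on both sides, those of YTHDF1, YTHDC1 and IGF2BP2 named above, against 22.6% of the shared motifs of all genes.

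Genes were then ordered by number of switch sites. The 7 readers listed under their symbol had a median of 6 switch sites (range 3 to 10), against a median of 2 over the 4188 genes, which include names looked up. Counted in that way YTHDF3 has 1 switch site, below the median gene, and the 8 readers have a median of 6 (range 1 to 10). At least 10 switch sites were found in 239 genes (5.71%), which include YTHDF1 and YTHDF2, at least 8 in 9.5%, at least 6 in 15.7%, at least 5 in 20.9% and at least 3 in 40.8%. The number of sites a gene can show depends on its length and expression, and their part in these counts was not tested. Each tract of a run counts as a site in this order. By distinct motifs YTHDF1 held 6 and YTHDF2 held 7, level with IGF2BP1 at 6 and YTHDC2 at 7. Genes were not ranked by motif. YTHDF1 and YTHDF2 have equal numbers of switch sites and differ in HCS sites, 0 and 3. Of the 51 genes with exactly 10 switch sites, 18 (35.3%) had no HCS site. By the same numbers of switch, HCS and shared sites, 17 genes match YTHDF1, of which ARMC8, ATP6V1G2-DDX39B, CNBP and CTDSPL2 come first in the alphabet, and 0 genes match YTHDF2.

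**Figure D4:**
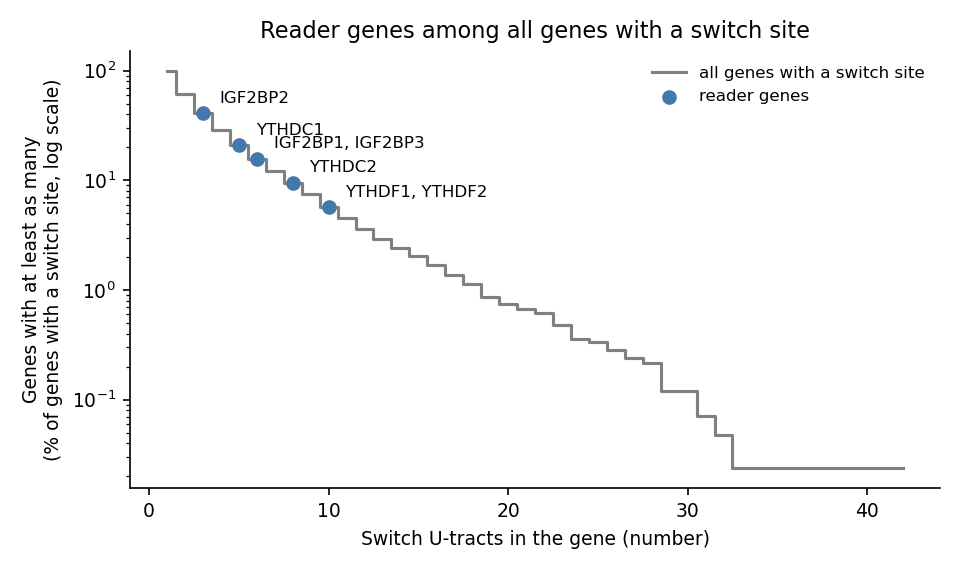
Share of genes (% of the 4188 genes with a switch site, log scale, vertical axis) that have at least the given number of switch U-tracts (horizontal axis), with the 7 readers listed under their symbol marked. YTHDF1 and YTHDF2, at 10 sites, sit at 5.71%, and IGF2BP2, at 3 sites, sits at 40.8%.

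Other genes of the m6A pathway show how far such counts vary. Of 9 writer genes, 5 had a switch site and 3 an HCS site, in all 21 and 6 sites with 3 in both lists. ZC3H13, a scaffold of the writer complex, had 3 of each, METTL14 had 3 switch and 2 HCS sites, the ubiquitin ligase CBLL1 had 1 HCS site, and WTAP, which places the complex in nuclear speckles, had 10 switch sites and no HCS site. The erasers FTO and ALKBH5 had 5 and 2 switch sites and no HCS site. Of 6 other proteins proposed as readers, all 6 had a switch site and 4 an HCS site, with 57 and 9 sites, among them HNRNPC with 30 and 4 and RBMX with 2 and 3.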

How the data were processed

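Deposited lists of sites were analysed. The positions, tract lengths and motif distances in nt are in the authors' own units, and the lists hold no count, score or value per sample. For the PAR-CLIP samples, hg19, Bowtie 1.0.0 and Trimmomatic are named per the submitters' processing notes. The sources used here do not give the calling of sites, the thresholds or any pooling of replicates. Nothing in the labels ties replicates to separate cultures.

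The 17352 switch entries and 2798 HCS entries were collapsed so that each U-tract, by its position and strand, counted once, and the entry with the smallest gap was kept. Y chromosome sites of genes also listed on the X chromosome, 3 sites in 4 entries, were dropped as presumed copies. They were not compared with the X sites by tract or gap. The gap is the number of nt between the edges of tract and motif, since the listed distance includes the 5 nt of an upstream motif. In the switch list the motif position in the transcript lay 1 nt below that from the chromosome in all 17348 entries kept, so chromosome positions were used. Missing symbols were looked up by transcript in a RefSeq table of GRCh38, used for names only (753 of 756 switch entries and 4 of 4 HCS entries matched). Genes were counted by these names, but a reader site needed its symbol in the list.

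Shares carry exact binomial (Clopper-Pearson) and medians exact order-statistic intervals at 95%, which cover counting error only. No test between samples was possible. Members, gene lists and thresholds were chosen with earlier results of these data known. Named genes were the 8 readers with every HCS site, from each other gene list up to 4 genes that lead by HCS sites, and up to 4 genes with the counts of a leading reader. Gap and side were checked on made-up entries with known answers. Computations ran in Python 3.11.15 with scipy 1.17.1, pandas 2.3.3 and numpy 2.4.6, and plots were drawn with matplotlib 3.10.9.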

Additional observations from a re-analysis of the deposited data

How the results depend on the processing

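Entries in place of distinct U-tracts, U-tracts listed under a gene outside the families left out, gaps of at most 45 nt, sites within 100 nt merged, the listed distance and 1 U-tract per motif were tried. One alternative, chosen after seeing the data, added the YTHDF3 entries that lack a symbol. Under these settings the 33 recomputed values kept within 1.5 times the reported count or within the exact interval of the median. The reader switch sites then numbered 36 to 68 and the median gap was 13.5 to 19.5 nt. Keeping only U-tracts of at least 6 uridines removed most sites by its construction, and the median gap was then 18.5 nt, within its interval. It left 14 switch sites, 7 of them with a downstream motif and with a median tract of 6 nt, and 3 HCS sites, all 3 intronic and 1 of them in the switch list. No paired analysis was possible because the lists hold no values per sample, and leaving out replicates was not possible for the same reason. Whether read depth, which is unknown, shaped the listing of reader sites was not tested.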
